A study of Rattus norvegicus with 48 samples.

Results

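The genes described here are 6 subunits and isoforms of the sodium and calcium pumps, Atp1b1, Atp1b3, Atp2a2, Atp2a3, Atp2b1 and Atp2b4, among 13050 genes with at least 1 read in each sample of cerebral endothelial cells (CECs). They were chosen by name, and all 6 passed that filter. Their Ensembl identifiers are ENSRNOG00000002934 (Atp1b1), ENSRNOG00000011501 (Atp1b3), ENSRNOG00000001285 (Atp2a2), ENSRNOG00000017912 (Atp2a3), ENSRNOG00000004026 (Atp2b1) and ENSRNOG00000003031 (Atp2b4). The CECs came from the cortex of adult male Wistar-Han rats that were fed ad libitum (AL) or had fasted for 1 day (F1), 2 days (F2) or 3 days (F3). Cells positive for CD11b, a microglial surface protein, were removed with magnetic beads and those positive for CD31, an endothelial surface protein, were kept. Each isolation used 4 rats, whose tissue was digested in pools of 2 cortices, so a sample is a mixture of animals. Each group had 3 samples from independent experiments, named i, j and k, and 4 technical replicates of each were summed. The rats carried no genetic change, and no drug was compared between these groups, so that they differ by the fast alone as far as the labels say. By the study's account, rats were anesthetized with diazepam and ketamine before perfusion, and bedding was changed when food was withdrawn. The values are whole-number read counts on exons, given here as normalized counts, that is, counts scaled to the mean library size. Depth was even, with 20718644 to 25960874 reads assigned to genes per sample.

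Na/K-ATPase uses ATP to move sodium out of the cell and potassium in, and consists of a catalytic alpha subunit and a beta subunit that is needed for its folding and delivery to the membrane. SERCA pumps, encoded by the Atp2a genes, return calcium from the cytosol to the endoplasmic reticulum, and PMCA pumps, encoded by the Atp2b genes, move it out across the plasma membrane. In the endothelium of the blood-brain barrier the sodium gradient drives many carriers, and calcium in the cytosol acts on contraction, nitric oxide synthesis and the junctions between cells.

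The endothelial markers were high in every sample. Slc2a1, the glucose transporter of the barrier, ranged from 257350 to 416070 normalized counts, and Pecam1, which encodes CD31, from 31658 to 38796. Both are among the 4 of 9 listed endothelial markers that had an identifier, and these moved in different directions with the fast. Slc2a1 rose in F1 (LFC 0.43, adjusted p = 0.0151 by edgeR) and F3 rats (LFC 0.52, adjusted p = 0.00302). Its LFC in F2 rats was of similar size but did not pass (0.40, adjusted p = 0.0612 by edgeR). Slco1c1, a carrier of thyroid hormone, fell in F3 rats (LFC -0.31, adjusted p = 0.0275), and Pecam1 and Abcb1a, a drug efflux pump, passed in no comparison with AL rats. Of 45 marker genes for 8 cell types, 11 had an identifier paired with a symbol, because the symbols used here ran mostly from A to Ccng1. The summed counts of the pericyte genes Abcc9 and Anpep, 2 of 7 on their list, ranged from 1762 to 4161 in AL, 1847 to 2099 in F1, 2186 to 4509 in F2 and 1473 to 4143 in F3 rats. Aldoc, 1 of 6 genes on the astrocyte list, ranged from 1826 to 2155 in AL, 1702 to 2277 in F1, 1530 to 2239 in F2 and 1546 to 1588 in F3 rats. The microglial genes Aif1 and C1qa, 2 of 6 on their list, summed to between 21.3 and 46.4. Acta2, the 1 gene of 4 on the smooth muscle list, ranged from 126 to 366, and Alas2, the 1 of 3 for red blood cells, from 36.1 to 110. No gene of the neuron and oligodendrocyte lists had an identifier here, so their levels were not analysed. In bulk samples, fewer cells of a type and less RNA per cell cannot be told apart.

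Of the 6 pump genes, 1 changed with fasting. Atp2a3, which encodes SERCA3, fell in F3 rats, and no pump gene passed the test in F1 or F2 rats. The test was the quasi-likelihood test of edgeR, with p-values adjusted over the 13050 genes and a threshold of 0.05. By the same test, 6.57% of all genes passed in F1, 0.920% in F2 and 12% in F3 rats against AL rats, and 5.73% passed as lower in F3 rats. The pump genes thus gave 0 of 6, 0 of 6 and 1 of 6 calls, and the latter lies close to the share over all genes. Their median log2 fold change (LFC) against AL rats was -0.01 in F1, -0.02 in F2 and -0.02 in F3 rats, beside -0.0043, -0.0085 and -0.0053 over all genes. No pump gene passed in F2 against F1 rats, F3 against F2 rats or F3 against F1 rats, where 1.34%, 5.88% and 0.00% of all genes passed. For F3 against F1 rats, edgeR called 0 genes and DESeq2 called 24, and 586 genes (4.49%) had an unadjusted edgeR p under 0.05, where no change at all would give about 5%. A joint test of the 4 groups called Atp2a3 alone among the 6, beside 9.98% of all genes.

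**Figure D1:**
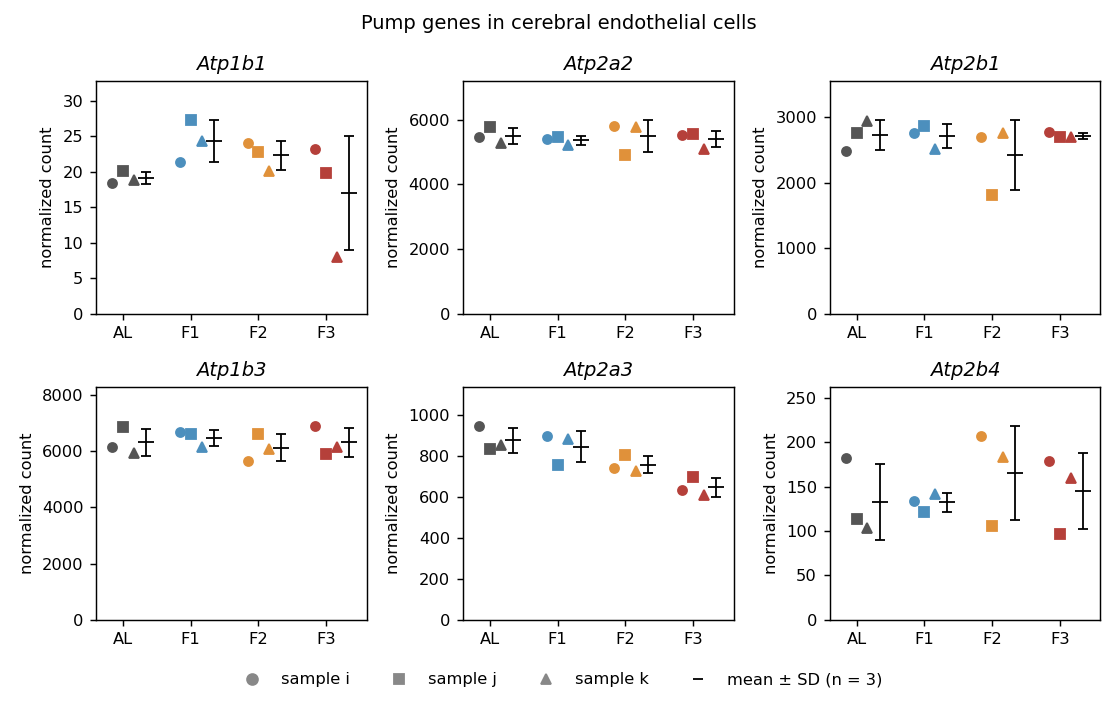
Normalized counts of the 6 pump genes (vertical axes, from 0) in each of the 12 samples, by group, with the letter of the sample as the symbol and the mean ± SD of 3 samples as the bar. The 3 Atp2a3 values of F3 rats, 610 to 700, lie below all the others, and Atp2b1 in F2 sample j (1808) and Atp1b1 in F3 sample k (7.94) stand apart from the rest.

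Among the SERCA genes, Atp2a3 had 949, 835 and 853 normalized counts in AL samples i, j and k. It had 897, 759 and 882 in F1, 744, 807 and 727 in F2 and 636, 700 and 610 in F3 samples. Each F3 sample was therefore below every sample of the other groups, and each F2 sample below every AL sample, while F1 and AL samples overlapped. Groups that do not overlap were common, and set AL rats apart from F1 rats in 28.7%, from F2 rats in 15.5% and from F3 rats in 35.6% of all genes, with 21.8% for F2 against F1 rats, 26.8% for F3 against F2 rats and 13.0% for F3 against F1 rats. The mean was 879 ± 61.2 (SD, n = 3) in AL rats and 649 ± 46.6 (SD, n = 3) in F3 rats, an LFC of -0.44 (SE 0.09, 95% interval -0.63 to -0.25, adjusted p = 0.00657 by edgeR). In F2 rats the LFC was -0.21 (SE 0.09, adjusted p = 0.333) and in F1 rats -0.06 (SE 0.09, adjusted p = 0.779), and neither passed. F3 rats against F2 rats gave -0.23 (adjusted p = 0.156) and F3 rats against F1 rats -0.38 (adjusted p = 0.507), so that the size of the F3 effect was not shown to differ from those at F1 and F2. The joint test gave an adjusted p of 0.0220.

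The F3 call of Atp2a3 stayed past the threshold in all 22 alternatives fixed at the outset, with adjusted p from 4.14e-04 (DESeq2) to 0.0379 (without F3 sample k), but it was lost with Aldoc as a covariate. That covariate was chosen after the relation between the genes had been seen, and gave an LFC of -0.38 and an adjusted p of 0.0699. Over all genes, the same covariate took the calls in F3 against AL rats from 1567 to 659. Aldoc itself had an LFC of -0.34 in F3 rats (adjusted p = 0.111). Over the 12 samples, log2 CPM of Atp2a3 and Aldoc had a Pearson's r of 0.680 (permutation p = 0.0163) and a Spearman's rho of 0.615 (permutation p = 0.0365). This is 1 of 66 relations between the 6 pump genes and 11 marker genes, and adjusted over them the p-values were 0.269 and 0.482. Of the 66, 2 had an adjusted permutation p of r at most 0.05, Atp2b4 with Abcc9 (r 0.894, adjusted p = 0.0145) and Atp2a2 with Abcb1a (r 0.841, adjusted p = 0.0241, r 0.660 without the 2 farthest samples; rho 0.790, adjusted p = 0.115). Atp2a3 also went against Slc2a1, with an r of -0.613 (adjusted permutation p = 0.345) and a rho of -0.741 (adjusted permutation p = 0.128), and for deviations from the group means r was -0.0027. For Atp2a3 and Aldoc without the 2 samples farthest from the median of Aldoc, r was 0.693, and for deviations from the group means it was 0.287. The part of Aldoc in the fall of Atp2a3 was not tested beyond this. The joint call was also lost when AL sample i (adjusted p = 0.0540), F3 sample i (0.0869) or F3 sample k (0.0967) was left out, and with the Aldoc covariate (0.127).

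Atp2a2, which encodes the widely expressed SERCA2, ranged from 4907 to 5791 normalized counts and did not pass in any comparison. Its means were 5492 ± 251 in AL, 5355 ± 131 in F1, 5487 ± 503 in F2 and 5385 ± 246 in F3 rats (SD, n = 3). The LFC in F3 rats was -0.03, with a 95% interval of -0.19 to 0.14 (adjusted p = 0.863 by edgeR), an interval that lies above the LFC of -0.44 measured for Atp2a3. All groups of Atp2a2 overlapped.

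As a share of SERCA reads (Atp2a2 plus Atp2a3), Atp2a3 made up 14.8%, 12.7% and 13.9% in AL samples i, j and k. The share was 14.3%, 12.2% and 14.5% in F1, 11.4%, 14.1% and 11.2% in F2 and 10.3%, 11.2% and 10.7% in F3 samples. F3 samples were below all AL and F1 samples and overlapped F2 samples. The mean was 13.8% ± 1.10 in AL and 10.8% ± 0.450 in F3 rats (SD, n = 3), a difference of -3.06 percentage points with an exact two-sided permutation p of 0.1, the smallest that 3 samples against 3 allow. Over the 4 groups, an exact permutation test of the spread of group means gave p = 0.0508, just above the threshold. With 1 sample left out, p was 0.0181 without F2 sample j, 0.0222 without F1 sample j and 0.0373 without AL sample j, and it stayed above 0.05 in the other 9 cases, up to 0.140 without F3 sample i. With labels exchanged within sample letters (the replicate block) it was 0.0972. These are shares of reads, not corrected for transcript length, and do not give the ratio of molecules.

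**Figure D2:**
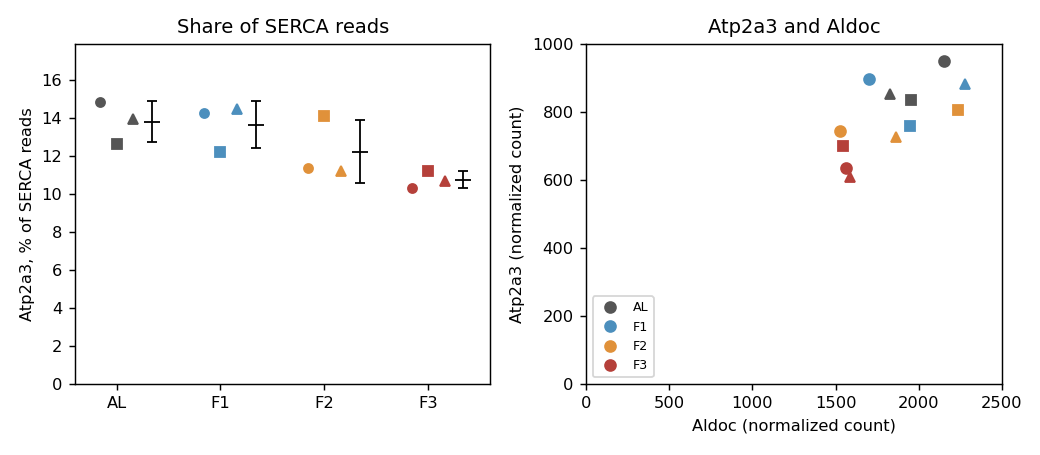
Left, Atp2a3 as a percentage of SERCA reads (vertical axis, from 0) in each sample by group, with the mean ± SD of 3 samples as the bar and circles, squares and triangles for samples i, j and k. Right, normalized counts of Atp2a3 against those of Aldoc in the 12 samples, coloured by group: the F3 samples lie low on both axes, at 610 to 700 for Atp2a3 and 1546 to 1588 for Aldoc.

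Of the PMCA genes, Atp2b1, which encodes PMCA1, the form found in most tissues, ranged from 2479 to 2944 normalized counts in 11 samples and was 1808 in F2 sample j. That sample was also the lowest of all for Atp2a2 (4907) and Abcb1a (67170), but the highest F2 sample for Atp1b3 (6620) and Atp2a3 (807). The mean of Atp2b1 in F2 rats was 2420 ± 530, beside 2726 ± 234 in AL, 2713 ± 179 in F1 and 2718 ± 46.6 in F3 rats (SD, n = 3). The LFC in F2 rats was -0.17 (95% interval -0.45 to 0.11, adjusted p = 0.621 by edgeR) and lost its size without F2 sample j. In F1 and F3 rats the LFC was -0.01 and -0.0042, and the 95% interval for F3 was -0.28 to 0.27.

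Atp2b4, which encodes PMCA4, had 182, 113 and 103 normalized counts in AL samples i, j and k, 134, 121 and 142 in F1, 207, 105 and 183 in F2 and 178, 96.5 and 160 in F3 samples. All groups overlapped, and the LFC was -0.01 in F1, 0.30 in F2 and 0.12 in F3 rats (adjusted p = 0.987, 0.695 and 0.843 by edgeR), with a 95% interval in F3 rats of -0.49 to 0.72. Its share of PMCA reads was 4.73% ± 1.85 in AL, 4.68% ± 0.647 in F1, 6.28% ± 0.815 in F2 and 5.04% ± 1.38 in F3 rats (SD, n = 3; exact permutation p over the 4 groups = 0.415).

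The spread of Atp2b4 within groups went with that of the pericyte genes. Against the summed counts of Abcc9 and Anpep, log2 values of Atp2b4 gave a Pearson's r of 0.889 (permutation p = 3.0e-04) and a Spearman's rho of 0.846 (permutation p = 8.8e-04) over 12 samples. The relation was chosen after the values were seen, once the 66 pairs of pump and marker genes had been looked at. Adjusted over 11 pump genes the permutation p-values were 0.0011 and 0.00323, but adjustment over the 11 does not cover that choice. Over the 66 pairs, Atp2b4 had an adjusted permutation p of r of 0.0145 with Abcc9 and 0.0623 with Anpep. Without the 2 samples farthest from the median, r was 0.857, and for deviations from the group means 0.935. Atp1b2, the beta2 subunit of Na/K-ATPase, gave an r of 0.956 (adjusted permutation p = 5.5e-05, from the smallest p that 100000 permutations can give), 0.938 without the 2 farthest samples, and a rho of 0.937 (adjusted permutation p = 2.2e-04). None of the other 5 of the 6 genes had an adjusted permutation p of r under 0.470, and Atp2a3 had an r of -0.215 (adjusted permutation p = 0.914). With these pericyte genes as a covariate, added after the data had been seen, Atp2a3 had an LFC of -0.44 in F3 rats (adjusted p = 0.00732 by edgeR). Atp2b4 then had an LFC of 0.33 in F1, 0.06 in F2 and 0.15 in F3 rats, none past the threshold (lowest adjusted p = 0.264). The part of pericyte content in these values was not tested beyond this.

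**Figure D3:**
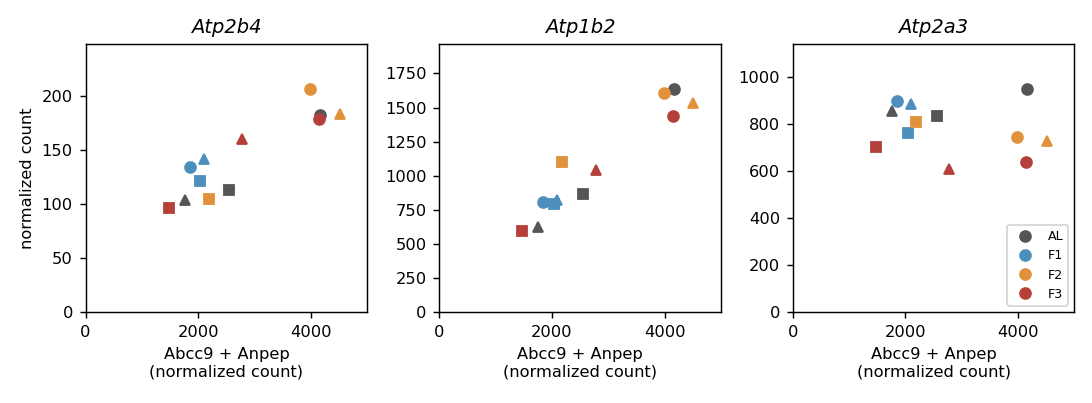
Normalized counts of Atp2b4, Atp1b2 and Atp2a3 (vertical axes, from 0) against the summed normalized counts of the pericyte genes Abcc9 and Anpep in the 12 samples, coloured by group, with circles, squares and triangles for samples i, j and k. Atp2b4 and Atp1b2 rise with the pericyte genes across the 12 samples (r of 0.889 and 0.956), and Atp2a3 shows no such relation (r of -0.215).

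Of the beta subunits, Atp1b3 (beta3) ranged from 5654 to 6890 normalized counts and did not pass in any comparison. Its means were 6304 ± 472 in AL, 6467 ± 294 in F1, 6112 ± 485 in F2 and 6310 ± 517 in F3 rats (SD, n = 3), and all groups overlapped. The 95% interval of its LFC in F3 rats was -0.18 to 0.19.

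Atp1b1 (beta1), the most widespread beta subunit in the body, was near the limit of detection, with 8 to 26 reads per sample. It had 20, 20 and 17 reads in AL samples i, j and k, 21, 26 and 24 in F1, 24, 23 and 20 in F2 and 25, 20 and 8 in F3 samples. F1 samples did not overlap AL samples after normalization, at 21.3 to 27.3 against 18.4 to 20.1, but the counting error of 1 sample was wider than this gap: the exact Poisson 95% interval was 12.2 to 30.9 reads for a count of 20 and 3.45 to 15.8 for the 8 reads of F3 sample k, for counting error only. The LFC was 0.35 in F1 (95% interval -0.33 to 1.02), 0.22 in F2 and -0.16 in F3 rats (adjusted p = 0.586, 0.814 and 0.811 by edgeR), so that changes of this size were not detectable at this depth. Per read of Atp1b1 there were 235 to 773 reads of Atp1b3, a ratio of reads and not of molecules.

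**Figure D4:**
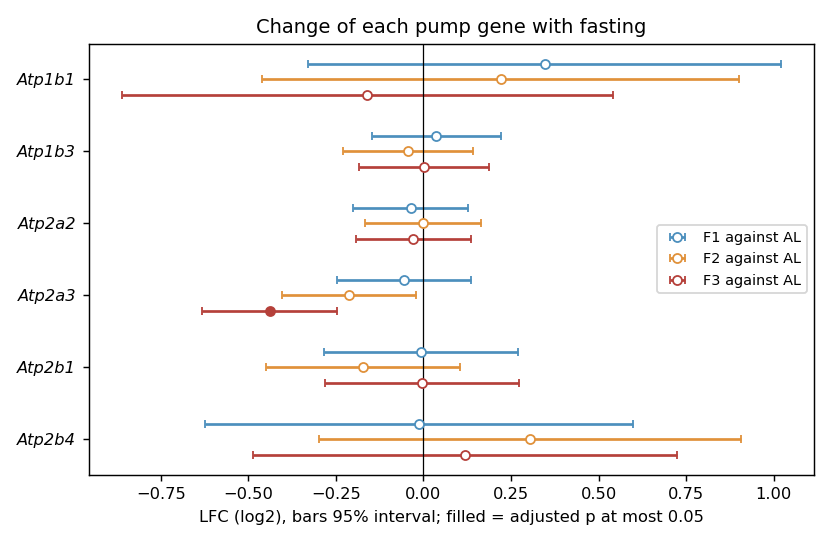
LFC of each pump gene in F1, F2 and F3 rats against AL rats (horizontal axis, log2) with its 95% interval, filled where the adjusted p is at most 0.05. Of 18 intervals, the filled one of Atp2a3 in F3 rats (-0.63 to -0.25) is the only call, and Atp1b1 and Atp2b4 have the widest intervals.

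Around the pumps, 57 further genes of sodium and calcium handling were listed, of which 10 had an identifier here, giving 11 tested features. Of these, 1 passed in F3 rats, lower, and 0 in F1 and F2 rats, beside 12% of all genes in F3 rats and 5.73% as lower. Calr, which encodes calreticulin, a calcium-binding chaperone of the endoplasmic reticulum, had 10446, 11362 and 10603 normalized counts in AL samples i, j and k and 8228, 8103 and 8778 in F3 samples, and the groups did not overlap, as for 35.6% of all genes. Its LFC was -0.37 (SE 0.07, adjusted p = 0.00502 by edgeR). In F1 and F2 rats the LFC was -0.19 for each (adjusted p = 0.154 and 0.263). Calnexin (Canx), the membrane-bound relative of calreticulin, had an LFC of -0.08 in F3 rats (adjusted p = 0.589).

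The other listed genes did not pass. Atp1b2 had a mean of 1042 ± 530 in AL and 1028 ± 422 in F3 rats (SD, n = 3), an LFC of -0.02 (adjusted p = 0.976 by edgeR). Atp2c1, the calcium and manganese pump of the Golgi, had an LFC of -0.03 (adjusted p = 0.886), and Atp2c2, the related pump of secretory cells, was at 0.993 to 20.8 normalized counts. Bsg, which encodes basigin, a partner of membrane transporters, had an LFC of -0.05 in F3 rats (adjusted p = 0.825). Calmodulin, which activates PMCA pumps, is encoded by several genes: Calm3 had an LFC of 0.06 in F3 rats (adjusted p = 0.643), and the features that carry the symbol Calm2 had -0.22 and -0.05 (adjusted p = 0.0937 and 0.773). Reads of such near-identical copies that matched more than once were removed by the authors, so values of single calmodulin genes are uncertain.

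For each pump gene the 3 named genes with the most similar profile over the 12 samples were taken by Pearson's r of log2 CPM, among named genes with a mean of at least 100 normalized counts, nearly all of them with symbols from A to Ccng1. For Atp2a3 these were Atp9a (r 0.834), Aif1l (r 0.823) and Adcy4 (r 0.821), which kept r of 0.787, 0.785 and 0.757 without the sample that lowered it most. Their LFC in F3 against AL rats was -0.24, -0.34 and -0.31, given as a description because the genes were chosen for this profile. For Atp2b4 they were Carmil1 (0.935), Cald1 (0.909) and Arhgef17 (0.907), with r of at least 0.879 without any 1 sample. For Atp2a2 they were Ccdc43 (0.881), Camsap2 (0.875) and Casp8ap2 (0.864), with r of 0.8456, 0.7885 and 0.7688 without F2 sample j. For Atp1b3 they were Abcd4 (0.785), Arf4 (0.766) and Ano2 (0.759). For Atp2b1 they were Ccdc186 (0.957), Btbd7 (0.946) and Asxl2 (0.938), and r fell to 0.699, 0.510 and 0.503 without F2 sample j, in which Ccdc186 was also lowest (929 normalized counts, 1143 or more in the other samples). For Atp1b1 they were Atg9a (0.770), Brcc3 (0.759) and Agfg2 (0.655), at counts where sampling noise is large. For Brcc3, r fell to 0.5625 without F3 sample k, and for Atg9a and Agfg2 to 0.7374 and 0.6279 without F1 sample j. These are descriptions over 12 samples in 4 groups, given without a test.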

How the data were processed

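RNA was measured in 12 samples of rat CECs, with 48 files. After trimming and filtering, the authors used STAR for alignment to Rnor_6.0 with an Ensembl annotation, dropped multi-matching reads and counted the rest on exons with HTSeq 0.5.3. The deposited counts are whole numbers, not normalized. The strand setting is not given in the sources used here. Samples were grouped by their labels, and technical replicate d of F1 sample k, whose labels conflict, stayed in F1. Technical replicates were summed. Symbols came from a shortened copy of the study's supplementary tables and paired 2043 of 13050 genes, nearly all with symbols from A to Ccng1. Pecam1 was paired by the name of its feature. A listed gene without an identifier here is therefore not one that the study left out.

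Genes with at least 1 read in each sample were tested in R 4.3.3 with edgeR 4.0.16 (TMM, glmQLFit with default settings, 1 model of 12 samples), with Benjamini-Hochberg adjustment over all genes. 95% intervals come from the same fit. Shares and correlations were tested by permutation (SciPy 1.17.1). Genes named are the 6 members, for each the 3 most similar named genes, and listed pathway genes that passed in any comparison or were listed by name, of which Slc8a1 and Nptn had no identifier here. A few listed genes were left out of the text. Symbols of clones were left out after the output had been seen. The members and lists were chosen with earlier results of these data known. Whether p-values cover more than these 3 samples per group depends on the experiments being independent, as the study states.

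After the first results had been seen, 8 edgeR settings (library size, dispersion, robust fit) were compared, to trace a small difference from an earlier analysis. The default fit, as fixed at the outset, was kept. The robust fit and covariates of pericyte genes and of Aldoc were added as alternatives, beside other scalings, filters, DESeq2 1.42.0, a block by sample letter and each sample left out. Levels per kilobase were not computed, because transcript lengths were not used here, so levels are not ranked between genes.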

Additional observations from a re-analysis of the deposited data

How the results depend on the processing

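In 22 alternatives fixed at the outset and 3 added after the data had been seen (the robust fit, the pericyte covariate and the Aldoc covariate), the number of pump genes called against AL rats was 0 in F1 and F2 rats throughout and 1 in F3 rats, except 0 with the Aldoc covariate, where Atp2a3 had an LFC of -0.38. The LFC of Atp2a3 in F3 rats ranged from -0.50 to -0.38 when 1 sample was left out. The joint call (1 gene) became 0 with the Aldoc covariate (adjusted p = 0.127), and ranged from 0 to 1 when 1 sample was left out (adjusted p = 0.0113 to 0.0967). The cause was not tested. The 8 edgeR settings compared after the results had been seen each called 1 pump gene, Atp2a3 in F3 rats, with adjusted p from 0.00600 to 0.00683.

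Other directions turned only for values that passed no test. With the Aldoc covariate the LFC became -0.03 (Atp2b4, F3 against AL), -0.01 (Atp2b1, F3 against F2; Atp2b4, F3 against F1), 0.01 (Atp1b3, F3 against F1) and -0.08 (Atp2a2, F3 against F1). With the pericyte covariate it became 0.03 (Atp2b1, F1 against AL), 0.33 (Atp2b4, F1 against AL), -0.01 (Atp2a2, F2 against F1 and F3 against F1), -0.26 (Atp2b4, F2 against F1), 0.09 (Atp2b4, F3 against F2) and -0.17 (Atp2b4, F3 against F1). Total counts gave -0.02 for Atp1b3 (F1 against AL), and the replicate block by letter 0.02 for Atp2b4 (F1 against AL). With 1 sample left out, LFC in F1 against AL ranged from -0.01 to 0.09 (Atp1b3), -0.10 to 0.02 (Atp2a3), -0.07 to 0.05 (Atp2b1) and -0.17 to 0.29 (Atp2b4); in F2 from -0.11 to 0.01 (Atp1b3); and in F3 from -0.45 to 0.17 (Atp1b1), -0.06 to 0.01 (Atp2a2) and -0.06 to 0.42 (Atp2b4). In F2 against F1 they ranged from -0.01 to 0.11 (Atp2a2) and -0.27 to 0.01 (Atp2b1), in F3 against F2 from -0.02 to 0.11 (Atp1b3), -0.10 to 0.01 (Atp2a2) and -0.43 to 0.04 (Atp2b4), and in F3 against F1 from -0.10 to 0.01 (Atp1b3), -0.01 to 0.05 (Atp2a2) and -0.05 to 0.35 (Atp2b4).

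Differences in shares, in percentage points, ranged with 1 sample left out from -0.0705 to 0.0330 (Atp1b1, F3), -0.741 to 0.560 (Atp2a3, F1), -0.723 to 1.00 (Atp2b4, F1) and -0.361 to 1.37 (Atp2b4, F3), and the spread of the Atp2a3 share over the groups from 2.86 to 3.64 (exact permutation p = 0.0181 to 0.140).

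The correlation of same-letter deviations passed 0.1 in 3 of 18 pairs (-0.0866 to 0.187), and in 7 of the 18 the same letter was the best match. With 3 samples per group, these values cannot decide whether the letters pair the samples. The replicate block kept the F3 call of Atp2a3 (adjusted p = 0.0123) and the joint call (0.0387) and called no other pump gene; over all genes it took F2 against F1 from 175 to 102 calls. Counts over all genes moved with other settings from 748 to 1241 (F1 against AL), 0 to 359 (F2), 659 to 1983 (F3), 36 to 616 (F2 against F1), 154 to 1242 (F3 against F2), 0 to 24 (F3 against F1) and 1124 to 2090 (joint), and with 1 sample left out from 304 to 1468, 38 to 154, 784 to 2378, 0 to 180, 145 to 748, 0 to 1 and 743 to 1784. The highest counts with 1 sample left out, 1468 (F1 against AL) and 2378 (F3 against AL), came without F2 sample j. Alternatives that needed transcript lengths were not run. At 8 to 26 reads per sample, depth limits what can be said of Atp1b1.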
